A study of Homo sapiens and Mus musculus with 9 samples.

Results

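The replication histone genes were examined in 3 human peak lists of PXR eCLIP. The members were chosen by symbol: every protein-coding gene of the GRCh38 RefSeq gene table whose symbol begins with H1-, H2AC, H2BC, H3C or H4C. This gave 74 of 20052 protein-coding genes, comprising 10 H1, 17 H2A, 19 H2B, 13 H3 and 15 H4 genes. In the nucleosome, H3 and H4 form the central tetramer, H2A and H2B join it as dimers, and H1 binds the linker DNA. Most of these genes are short, lack introns and are transcribed in S phase from clustered copies. Their mRNAs end in a stem-loop bound by the stem-loop binding protein SLBP and not in a poly(A) tail. The label does not hold for every member: H1-10 encodes a replication-independent linker histone, and H1-6, H1-7, H1-8, H2AC1 and H2BC1 are known from germ cells.

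PXR (gene NR1I2) is a transcription factor of the nuclear receptor family, activated by many drugs and bile acids. In eCLIP, RNA is crosslinked to protein with UV light, trimmed with RNase and sequenced from an immunoprecipitate (IP). The human groups were HepG2 cells, a hepatocellular carcinoma line, with 2 IPs made with an antibody to the HA tag and 1 input; PXR knockout LS174T cells with 1 PXR IP; and wildtype LS174T cells, a colorectal adenocarcinoma line, with 1 PXR IP and 1 input. The titles of the HepG2 IPs name PXR. The labels do not say outright that PXR carried the HA tag, or whether the knockout was 1 clone. A list holds called peaks and nothing on single libraries. The spread among replicates is therefore unknown, and no difference was tested. One LS174T list is recorded under the wildtype input and the other under the wildtype PXR IP, while their names and peak names read WT and KO. They are called the WT-named and KO-named lists, and no direction between genotypes, or between IP and input, is drawn from them. A list recorded under the knockout IP was not analysed here.

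The lists held 1557 peaks for HepG2, 46 for the KO-named list and 2103 for the WT-named list. Library totals are not part of the lists, so depth is known only as the reads recovered at each summit, which had a median of 9, 19 and 11 in that order. Of 12 hepatocyte markers, albumin included, 0 had a peak in the HepG2 list. All 6 luminal epithelium markers did, with GATA3 at 47 reads, XBP1 at 38 and ESR1 at 9, and 3 of 12 colon epithelium markers did, TFF1 being in both marker lists. The WT-named list had peaks in 8 of the 12 colon markers, 3 of the 6 luminal markers and 0 of the 12 hepatocyte markers. The KO-named list had KRT19 alone of all these markers. Of all protein-coding genes, 5.28% had a peak in the HepG2 list and 6.96% in the WT-named list. For hepatocyte markers, 0 of 12 was near that background in both lists. The marker lists were chosen with earlier results of these data known, so their counts are no independent support for or against a label. They do not settle which cells gave the HepG2 list, and it is called by that label only as a name.

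Histone genes carried peaks in the HepG2 and WT-named lists and none in the KO-named list. A gene counted as having a peak when a summit lay in its span; a gene without one may still hold reads below the caller's threshold. In HepG2, 40 of the 74 had one (54.1%), where 5.28% of all protein-coding genes did. In the KO-named list 0 of 74 had one, with a background of 0.125%, so that count says nothing about histone genes in particular. In the WT-named list 23 of the 74 had one (31.1%), against a background of 6.96%. Histone genes held 41 HepG2 peaks (2.63% of that list) and 25 WT-named peaks (1.19%).

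Other protein-coding genes as short as histone genes rarely had peaks. Among protein-coding genes under 1000 bp, 6.9% had a peak in HepG2, 0.187% in the KO-named list and 4.66% in the WT-named list, histone genes included. Of the 37 such genes with a HepG2 peak, 34 were histone genes, and 3 came from the 474 other short genes (0.633%). Of the 25 with a WT-named peak, 18 were histone genes and 7 were others (1.48% of 474). The lists hold no RNA levels, so more RNA of a gene and more binding to it cannot be told apart. In such bulk samples, fewer cells that make an RNA and less of it per cell cannot be told apart either.

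**Figure D1:**
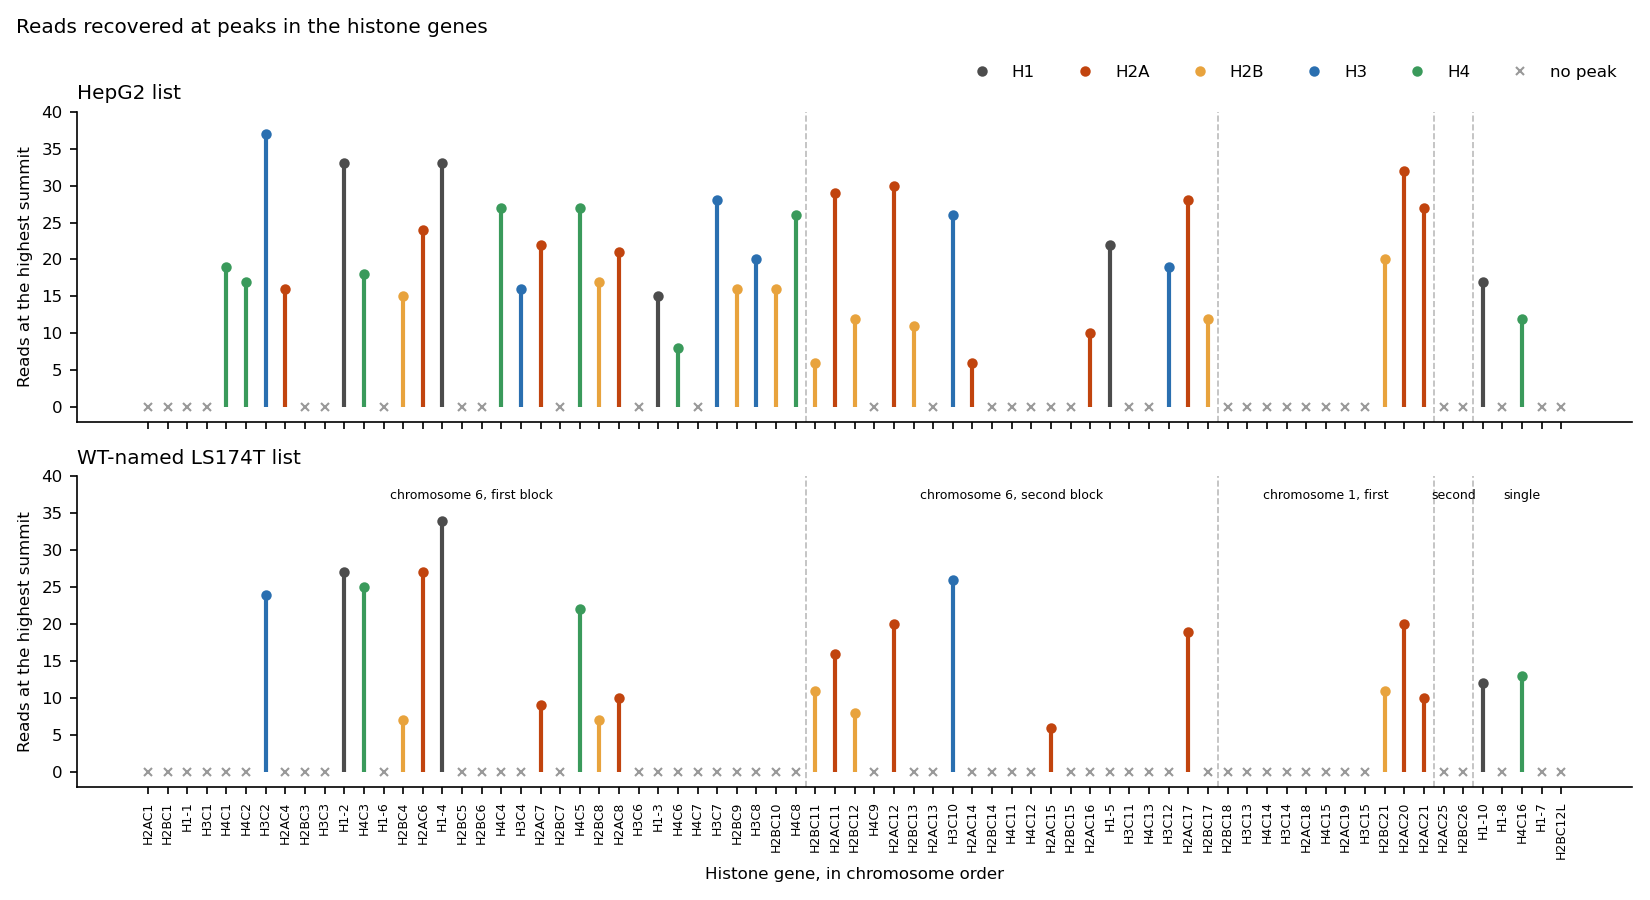
Reads recovered at the highest summit of 73 histone genes (vertical axis, reads), for the HepG2 list above and the WT-named LS174T list below, with genes in chromosome order, colours for histone type, dashed lines between clusters and crosses for genes without a peak. HepG2 values run from 6 to 37 in 39 genes and WT-named values from 6 to 34 in 22 genes.

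The reads behind these peaks were few and differed by histone type. Here reads means the sequenced fragments, taken as extended to 200 bp by the caller, that cover the summit. They were worked out from the deposited fold and −log10 p. The highest peak of each gene held 6 to 37 reads in HepG2, with a median of 19, and 6 to 34 in the WT-named list, with a median of 16. Over every histone peak, and not only the highest of each gene, the median was 19 reads in both lists. Over every peak in other protein-coding genes it was 10 in HepG2, against 11 in the WT-named list, and the highest reached 4408 and 4233. The deepest histone peak, in H3C2, ranked 122 by reads in the HepG2 list. By type the median in HepG2 was 24 reads for H2A, 23 for H3, 19.5 for H1, 18.5 for H4 and 15 for H2B, against 9 for all peaks of that list. H4C6 (8 reads), H2BC11 and H2AC14 (6 each) lay below that 9. In the WT-named list it was 30 reads for H1, 25 for H3, 22 for H4, 16 for H2A and 8 for H2B, the last below the median of 11 for all peaks.

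By histone type, the members with a peak in HepG2 were 6 of 10 H1, 11 of 17 H2A, 9 of 19 H2B, 6 of 13 H3 and 8 of 15 H4 genes. In the WT-named list they were 4 of 10 H1, 9 of 17 H2A, 5 of 19 H2B, 2 of 13 H3 and 3 of 15 H4 genes. H2A had the highest share in both lists, 64.7% in HepG2, against 52.9% in the WT-named list. The count in HepG2 exceeded that in the WT-named list by 2 genes for H1 and H2A, by 4 for H2B and H3 and by 5 for H4. Differences between types were not tested.

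The promoters of the members with most HepG2 reads among the H1, H2A, H3 and H4 genes with a listed promoter (H1-2 is level with H1-4, and H4C4 with H4C5) are given as examples of the sequences searched for motifs. Each is 300 bases from RefSeq (GRCh38.p14), 250 before the gene start and 50 after it, 5′ to 3′. Capitals mark matches on either strand to 5 motifs. These were the octamer bound by the factor POU2F1, ATTTGCAT, the TATA box with the letters TATAAA, the box named after its letters CCAAT, the H1 box, spelled AAACACA, and a promoter element of H4 genes with the letters GGTCCG.
H1-2, chr6:26056421-26056720, minus strand: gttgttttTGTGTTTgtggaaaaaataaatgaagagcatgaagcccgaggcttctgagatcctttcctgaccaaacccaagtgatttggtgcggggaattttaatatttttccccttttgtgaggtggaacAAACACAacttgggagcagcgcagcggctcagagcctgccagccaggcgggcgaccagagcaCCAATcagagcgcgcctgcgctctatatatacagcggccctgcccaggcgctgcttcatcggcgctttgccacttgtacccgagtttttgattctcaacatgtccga
H2AC20, chr1:149886668-149886967, plus strand: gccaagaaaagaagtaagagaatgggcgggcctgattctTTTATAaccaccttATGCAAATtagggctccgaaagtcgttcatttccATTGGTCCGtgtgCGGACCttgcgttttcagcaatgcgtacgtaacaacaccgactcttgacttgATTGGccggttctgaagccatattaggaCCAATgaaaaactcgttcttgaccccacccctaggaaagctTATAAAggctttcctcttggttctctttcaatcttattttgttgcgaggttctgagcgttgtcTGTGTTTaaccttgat
H3C2, chr6:26032050-26032349, minus strand: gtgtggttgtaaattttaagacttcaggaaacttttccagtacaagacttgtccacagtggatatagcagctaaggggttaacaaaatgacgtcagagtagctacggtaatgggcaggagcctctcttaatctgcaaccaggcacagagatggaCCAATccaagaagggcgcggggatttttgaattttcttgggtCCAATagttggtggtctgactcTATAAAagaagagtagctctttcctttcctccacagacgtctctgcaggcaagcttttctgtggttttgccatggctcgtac
H4C4, chr6:26189063-26189362, minus strand: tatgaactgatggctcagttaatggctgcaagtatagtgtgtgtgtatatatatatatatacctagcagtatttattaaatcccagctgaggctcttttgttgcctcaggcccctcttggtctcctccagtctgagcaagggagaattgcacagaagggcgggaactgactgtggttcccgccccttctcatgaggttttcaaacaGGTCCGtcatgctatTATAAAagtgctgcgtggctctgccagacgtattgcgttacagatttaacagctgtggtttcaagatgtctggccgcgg
In H2AC20 the window also holds the start of H2BC21 on the other strand, and one CCAAT match shares letters with a GGTCCG match. Its H1 box and GGTCCG matches are exceptions, since 1 of the 16 H2A promoters held each of them.

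A promoter was listed for 67 of the 74 members. The octamer was present in 11 of 16 H2A and 14 of 18 H2B promoters, in 1 of 11 H3 promoters and in 0 of 9 H1 and 0 of 13 H4 promoters, against 1.82% of 27305 promoters of all genes. Many H2A and H2B genes lie start to start, 193 to 247 bp apart, and their windows cover the same stretch. A match there counted for both genes, so the H2A and H2B counts are not of separate sites. The H1 box was present in 7 of 9 H1 promoters, 1 of 16 H2A and 2 of 11 H3 promoters, against 5.78% of all. GGTCCG was present in 12 of 13 H4 promoters and in 1 promoter of each other type, against 10.97% of all. CCAAT was present in every H2A, H2B and H3 promoter, in 8 of 9 H1 and in 3 of 13 H4 promoters, against 35.6% of all. TATAAA was spread over the types, with 4 of 9 H1, 12 of 16 H2A, 12 of 18 H2B, 8 of 11 H3 and 7 of 13 H4 promoters, against 12.1% of all. The same promoters were then split into 36 of genes with a peak in either list and 31 of genes without one. The octamer was present in 19 of the 36 with a peak and 7 of the 31 without, the widest split of the 5 motifs. TATAAA was present in 24 of 36 and 19 of 31, CCAAT in 30 of 36 and 26 of 31, the H1 box in 5 of 36 and 5 of 31, and GGTCCG in 10 of 36 and 6 of 31. None of these splits was tested, and the share of each histone type differs between the groups with and without a peak. Windows shared by H2A and H2B neighbours also count more than 1 time in them.

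**Figure D2:**
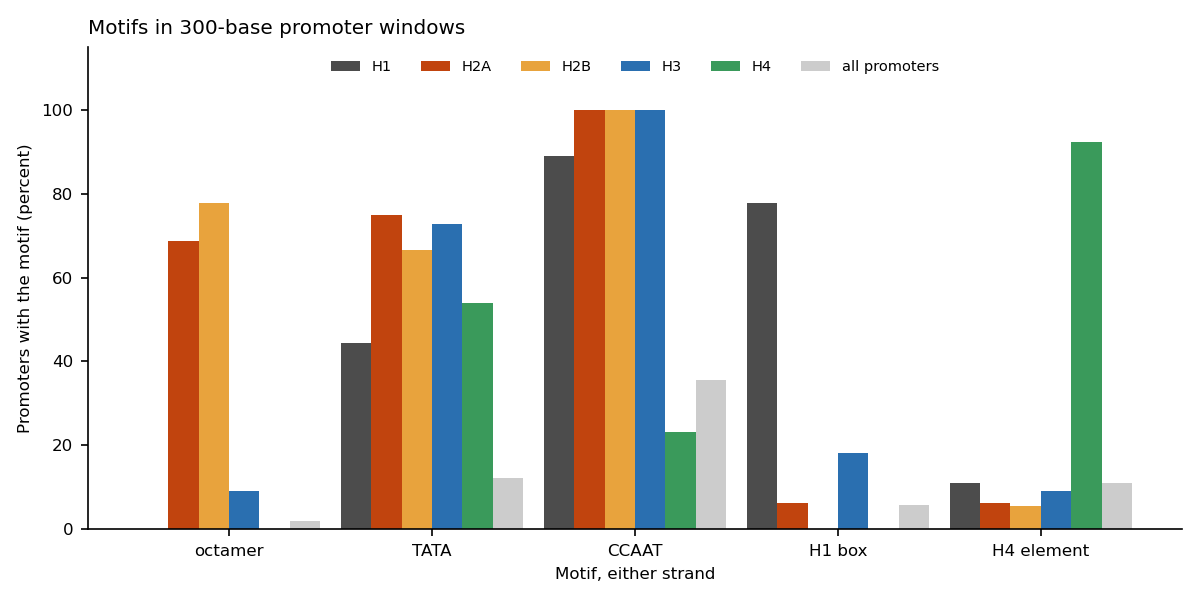
Share of 300-base promoter windows (vertical axis, percent) that hold each of 5 motifs on either strand, by histone type (coloured bars) and for all 27305 promoters (grey bars). The octamer stands out in H2A and H2B, the H1 box in H1 and GGTCCG, shown as the H4 element, in H4. The windows of neighbouring H2A and H2B genes overlap, so their bars share sites.

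H1 genes, which encode the linker histones, included some of the deepest histone peaks of both lists. H1-4 held 33 reads in HepG2 (Poisson interval 22.7 to 46.3) and 34 in the WT-named list (interval 23.5 to 47.5). H1-2 held 33 reads in HepG2, against 27 in the WT-named list. The intervals cover counting error only, and for both genes the lists overlapped. H1-5 (22 reads) and H1-3 (15 reads) had a peak in HepG2 and none in the WT-named list. The replication-independent H1-10 held 17 reads in HepG2, with a further peak of 12, and 12 reads in the WT-named list. H1-1 and the germ cell genes H1-6, H1-7 and H1-8 had no peak in any list.

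H2A and H2B genes, whose proteins pair in the nucleosome, lie in the genome as divergent pairs that share the stretch between their starts. There were 12 such pairs, with opposite directions and gaps of 193 to 247 bp (for H2AC12 no strand was listed, and its pair was taken from the gap and from H2BC12). The H2A gene held more reads than its H2B partner in every pair in which both had a peak, in 6 of 6 HepG2 pairs and 5 of 5 WT-named pairs. The ratio of H2A to H2B reads had a median of 1.97 (range 1.24 to 4.83) in HepG2 and 1.82 (range 1.43 to 3.86) in the WT-named list.

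H2AC20 held 32 reads and H2BC21 held 20 in HepG2, against 20 and 11 in the WT-named list. H2AC11 held 29 reads and H2BC11 held 6 in HepG2, against 16 and 11 in the WT-named list. H2AC12 held 30 reads and H2BC12 held 12 in HepG2, against 20 and 8 in the WT-named list. Each H2A value was thus the higher of its pair, by a margin that differed between lists for H2AC11. H2AC6 held 24 reads and H2BC4 held 15 in HepG2, against 27 and 7 in the WT-named list. H2AC8 held 21 reads and H2BC8 held 17 in HepG2, against 10 and 7 in the WT-named list. H2AC17 held 28 reads and H2BC17 held 12 in HepG2, while in the WT-named list H2AC17 held 19 and H2BC17 had no peak.

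In the remaining pairs a single gene or neither had a peak. H2AC7 held 22 reads in HepG2, against 9 in the WT-named list, and its partner H2BC7 had no peak in either. H2BC13 was the exception, with 11 reads in HepG2 and no peak in its H2A partner H2AC13. H2AC14 (6 reads in HepG2) and H2AC15 (6 reads in the WT-named list) each had a peak in 1 list, with none in H2BC14 or H2BC15. The germ cell pair H2AC1 and H2BC1 and the pair H2AC25 and H2BC26 had no peak in any list. The summits of a pair lie on opposite strands, so the same reads did not count for both genes.

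**Figure D3:**
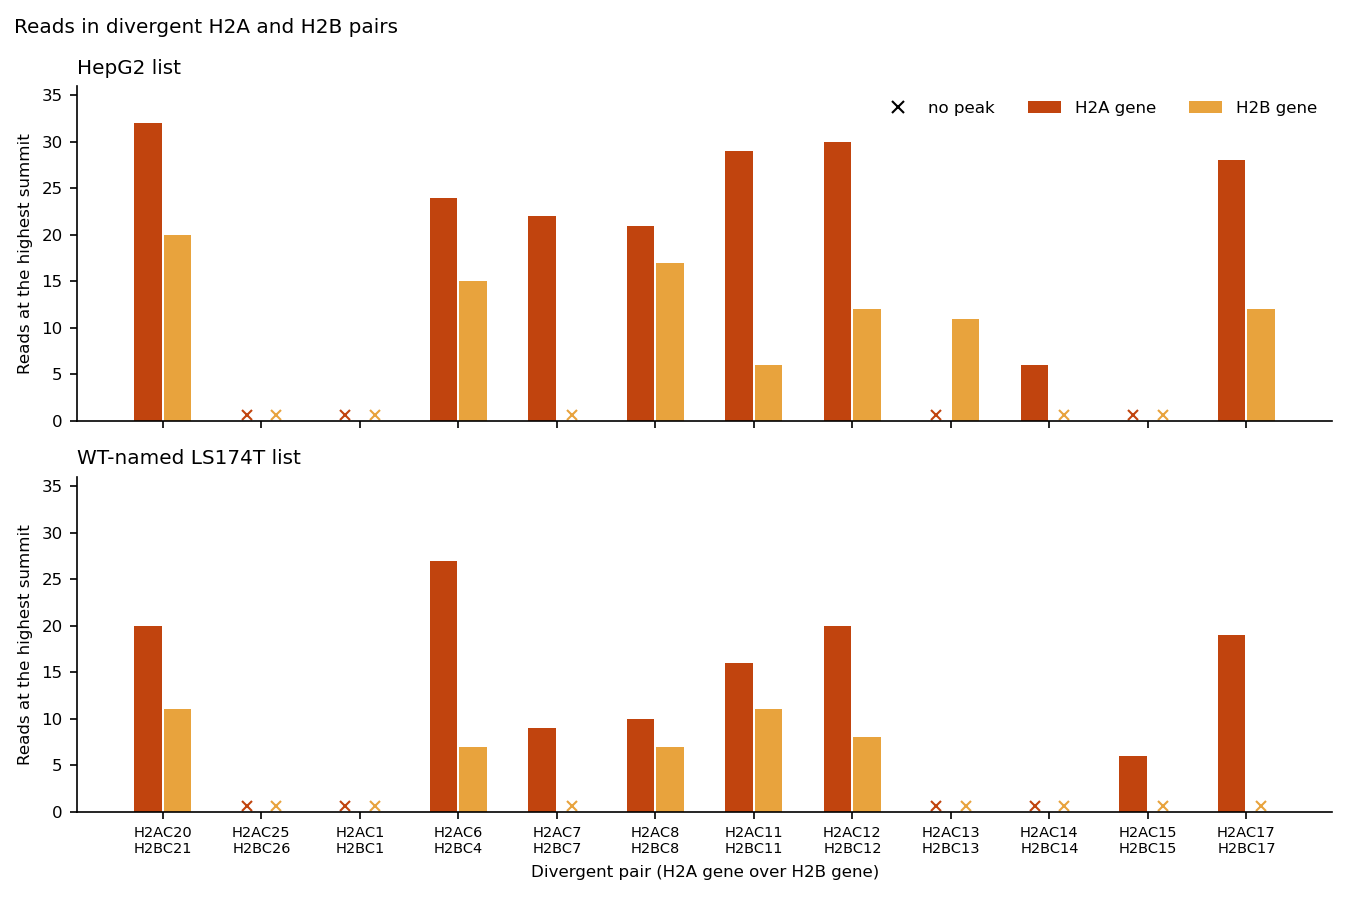
Reads at the highest summit (vertical axis, reads) for the H2A gene (left bar) and the H2B gene (right bar) of 12 divergent pairs, in the HepG2 list above and the WT-named LS174T list below, with crosses where a gene had no peak. The H2A bar is the taller in each of the 6 HepG2 pairs and 5 WT-named pairs with both bars.

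Among H2A genes outside these pairs, H2AC21 held 27 reads in HepG2, against 10 in the WT-named list, a ratio of 2.70 (exact binomial interval 1.27 to 6.25, counting error only), the highest among the shared histone genes. H2AC4 (16 reads) and H2AC16 (10 reads) had a peak in HepG2 and none in the WT-named list. The unpaired H2B genes H2BC9 and H2BC10 held 16 reads each in HepG2 and had no WT-named peak. No H2B gene exceeded 20 reads in HepG2 or 11 in the WT-named list, whereas H2A genes reached 32 and 27. Outside the pairs, H2AC18, H2AC19, H2BC3, H2BC5, H2BC6, H2BC18 and H2BC12L had no peak in any list.

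H3 genes, which encode a core of the histone tetramer, included the deepest HepG2 peak among histone genes. H3C2 held 37 reads in HepG2 (Poisson interval 26.1 to 51.0) and 24 in the WT-named list (interval 15.4 to 35.7), and these intervals overlapped. H3C10 held 26 reads in both lists. H3C7 (28 reads), H3C8 (20), H3C12 (19) and H3C4 (16) had a peak in HepG2 and none in the WT-named list. The peak of H3C4 lay near the far end of a 2510 bp span that also contains H2AC7. No list held a peak in H3C1, H3C3, H3C6, H3C11, H3C13, H3C14 or H3C15.

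H4 genes, which encode the partner of H3, showed a split by position within chromosome 6 in HepG2. In HepG2, 7 of the 8 H4 genes of the first block had a peak and 0 of the 4 in the second block (H4C9, H4C11, H4C12 and H4C13). The WT-named list had peaks in 2 of the 8 and 0 of the 4, which shows little of a split. H4C4 and H4C5 held 27 reads each in HepG2, H4C8 held 26, H4C1 19, H4C3 18, H4C2 17 and H4C6 8. H4C5 held 22 reads in the WT-named list and H4C3 held 25, and the others of the block had no peak there. H4C7 was the first-block H4 gene without a peak in either list, and H4C14 and H4C15 on chromosome 1 had none. H4C16, on chromosome 12, held 12 reads in HepG2, against 13 in the WT-named list.

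By chromosome cluster, the first block of chromosome 6 (25726063 to 26285534, hg38) had peaks in 22 of its 34 members in HepG2, against 10 of 34 in the WT-named list. The second block (27132316 to 27893891) had them in 12 of 21 in HepG2, against 7 of 21 in the WT-named list. The first block of chromosome 1 (149782689 to 149887965) had them in the same 3 of 11 in both lists, H2AC20, H2AC21 and H2BC21. The second block of chromosome 1 (228457364 to 228458558), which holds H2AC25 and H2BC26, had none. Of the members elsewhere, H1-10 and H4C16 had a peak in both lists, and H1-7, H1-8 and H2BC12L in none. All 18 genes found in HepG2 and not in the WT-named list lay in the chromosome 6 blocks, 12 in the first and 6 in the second.

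Within these blocks no peak fell outside a histone gene, though few other protein-coding genes lay there. The 4 blocks also contain 106 other genes, 13 of them protein-coding, 30 pseudogenes and 51 tRNA genes. All 37 HepG2 peaks and all 20 WT-named peaks in the blocks had their summit in a member, and the KO-named list had none there. Among all protein-coding genes the share with a peak was 5.28% (HepG2 list) or 6.96% (WT-named list). For the 13 others of the blocks, 0 with a peak is near that background and shows no shortage. Of the 75 pseudogenes with histone symbols in the annotation, 0 had a peak in any of the 3 lists. The share of all pseudogenes or tRNA genes with a peak is not given here. These counts therefore say nothing about histone pseudogenes, or about the tRNA genes of the blocks, in particular.

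Histone genes include near-identical copies, and the copies with the most alike promoters had no peaks. Promoters of the same type were compared without gaps, allowing a shift of up to 20 bases. H2AC18 and H2AC19 were identical over 299 bases, H3C14 and H3C15 over 296, and H4C14 and H4C15 over 300, all in the first block of chromosome 1. None of these 6 genes had a peak in any list. H4C11 and H4C12 shared 98.3% of bases and also had none. H2AC13 and H2AC14 shared 84.0%, and H2BC13 and H2BC14 79.3%. In these pairs H2AC14 and H2BC13 had a HepG2 peak and their copies did not. All other pairs of one type were at most 61.3% alike, H4C5 and H4C8 being the closest of them. How reads that match several copies were treated is not given in the sources used here, so reads that were dropped or split among copies cannot be told apart from RNA that was not recovered. The coding sequences were not used here.

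The HepG2 and WT-named lists shared most of the histone genes of the WT-named list. Both held a peak in 22 of the 74 (2.44% of all protein-coding genes), HepG2 alone in 18 (background 2.84%) and the WT-named list alone in 1 (background 4.52%), H2AC15. The shared genes made up 55.0% of the histone genes with a HepG2 peak and 95.7% of those with a WT-named peak. For other protein-coding genes the shared 467 made up 45.9% of those with a HepG2 peak and 34.0% of those with a WT-named peak, with 551 in HepG2 alone and 906 in the WT-named list alone. The leading genes found in HepG2 alone were H3C7, H4C4, H4C8, H1-5 and H3C8, with 20 to 28 reads each.

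At the 22 shared histone genes HepG2 held more reads in 15, the WT-named list in 6, and H3C10 was equal. The ratio of HepG2 to WT-named reads had a median of 1.49 (quartiles 0.978 and 1.82). For the other 467 shared protein-coding genes the median was 0.909 (quartiles 0.566 and 1.40). HepG2 held more reads in 68.2% of the shared histone genes and in 40.3% of the other shared genes. By type the median ratio was 1.71 for 8 H2A genes, 1.82 for 5 H2B genes, 1.10 for 4 H1 genes and 0.923 for 3 H4 genes. The exact binomial interval of the ratio lay above 1 for 2 genes, H2AC21 and H2AC7 (2.44, interval 1.08 to 6.03), and included 1 for 19. Each list has its own depth, cell line and antibody, and the ratios say nothing of conditions.

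**Figure D4:**
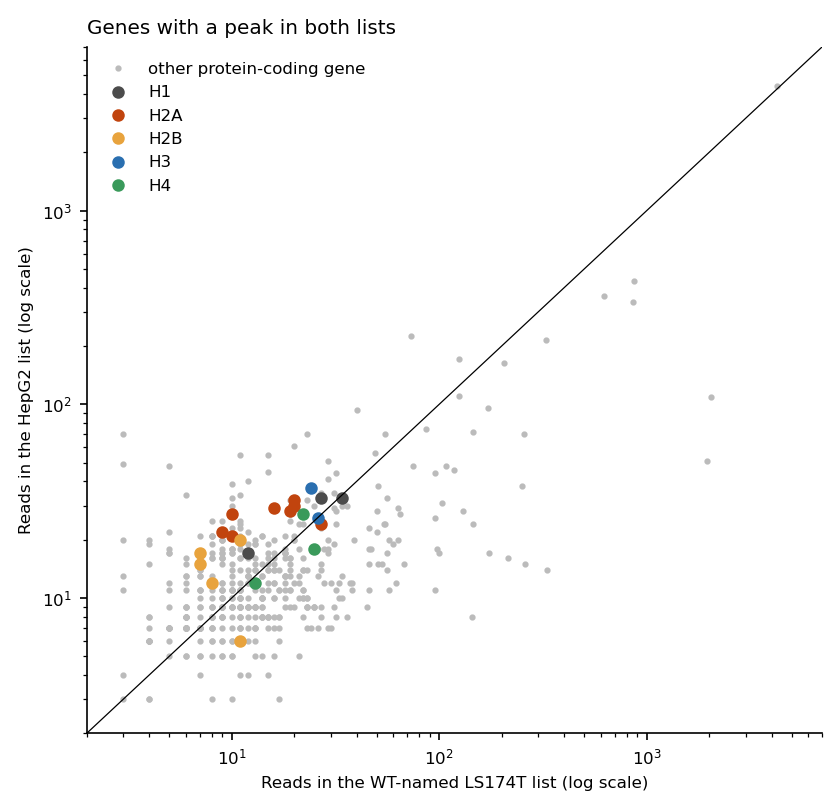
Reads at the highest summit in the HepG2 list (vertical axis, log scale) against the WT-named LS174T list (horizontal axis, log scale) for genes with a peak in both, with 21 histone genes coloured by type, 467 other protein-coding genes in grey and the line of equal reads. Most H2A and H2B genes lie above the line.

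In most shared genes the summits of both lists lay close together. Peaks overlapped on the same strand in all 22 genes, by 138 to 591 bp. The distance between summits had a median of 28.5 bp (quartiles 8.5 and 55.2), was at most 20 bp in 9 genes and over 100 bp in 4. In H2BC21 the summits were at the identical base, 149886501 on chromosome 1. In H1-2, H2BC11 and H4C5 they were 2 bp apart. Those over 100 bp included 177 bp in H2BC4, 135 bp in H3C2 and 104 bp in H2AC8.

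All histone peaks with a known gene strand lay on the strand of the gene. This held for 36 of 36 peaks in HepG2 (exact interval 90.3 to 100%) and 20 of 20 in the WT-named list (interval 83.2 to 100%). For other protein-coding genes the share was 84.8% of 926 peaks in HepG2, against 93.7% of 1468 in the WT-named list. For 7 members no strand was listed. Among these, H2AC12, H3C12, H4C1 and H4C3 had peaks, those of each gene on a single strand in the lists that held them. Divergent neighbours some 200 bp apart therefore carried peaks on opposite strands, each matching its own gene.

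Peaks in histone genes were wide, and many ran past the annotated gene end. In HepG2 their median width was 390 bp, against 202 bp for peaks in other protein-coding genes. In the WT-named list it was 335 bp, against 217 bp for the others. In the 62 members under 1000 bp, a peak covered a median of 75.5% of the gene span in HepG2, against 72.5% in the WT-named list. Over H2B members of any length the median was 37.7% in HepG2, against 8.99% in the WT-named list, which had fewer H2B peaks. The long genes H2BC21 (2224 bp), H2BC4 (10757 bp) and H2BC12 (8566 bp) weigh more there. Peaks covered 9.08, 3.91 and 2.33% of these in HepG2, against 8.99, 2.10 and 2.36% in the WT-named list. Of the 41 HepG2 peaks 21 ran past the gene end, by up to 156 bp, and 0 began before the gene start. Of the 25 WT-named peaks 7 ran past the end, by up to 114 bp, and 0 began before the start. The caller was taken to extend each read to 200 bp. Such an extension can carry the edge of a peak beyond the RNA, and its part in this was not tested.

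The median summit lay near the middle of the gene in members under 1000 bp. The spread of summits differed in size by type, which was not tested. In members under 1000 bp they lay a median of 243.5 bp from the gene start in HepG2, against 244.5 bp in the WT-named list. H4 summits were the most uniform, 196 to 310 bp from the start in 8 HepG2 peaks and 183 to 230 bp in 3 WT-named peaks. H2A summits lay 140 to 376 bp from the start in HepG2, with a median of 227, and 204 to 480 bp in the WT-named list, with a median of 245. H2B summits, here in genes of any length, were split, with 3 of 9 HepG2 peaks under 200 bp from the start and the other 6 at 300 bp or more. In the WT-named list 4 of 5 H2B summits were under 200 bp and that of H2BC11 was at 355 bp. In the long genes H2BC21, H2BC4 and H2BC12 the summits lay at 1.45 to 8.14% of the span in both lists. H2BC10, H2BC13 and H2BC17, with summits 454, 427 and 439 bp from the start, had their summit within 30 bp of the annotated end and were seen in HepG2 only among these lists.

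**Figure D5:**
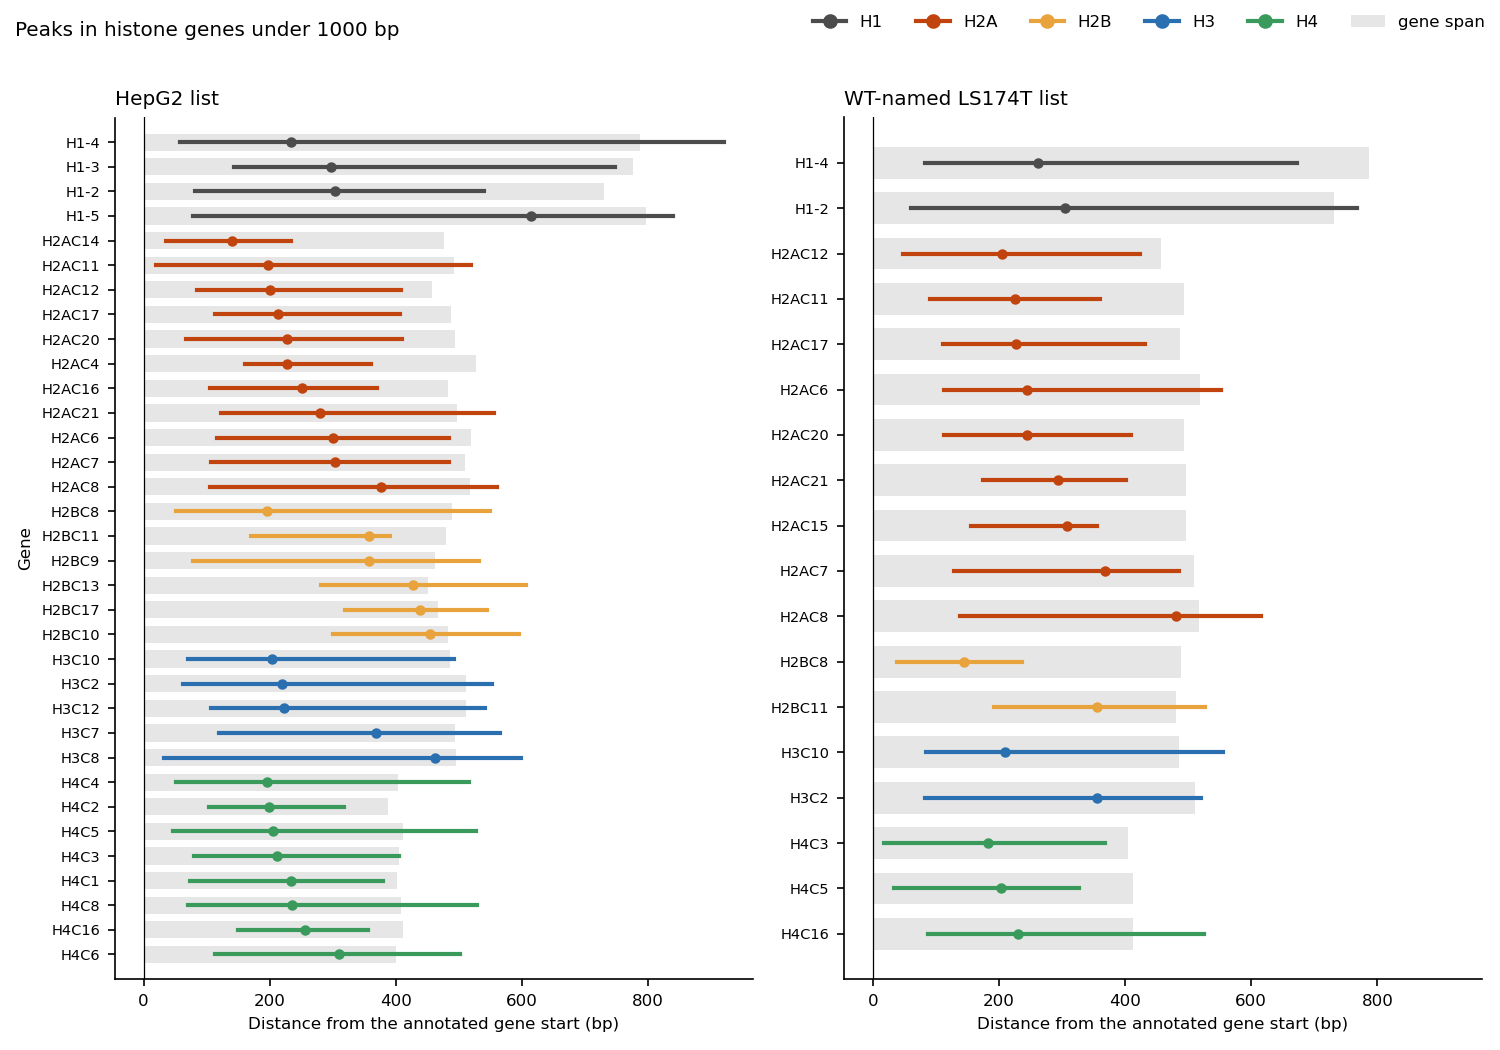
Peaks in histone genes under 1000 bp, drawn from the annotated gene start (0 on the horizontal axis, bp) along the gene, in the HepG2 list on the left and the WT-named LS174T list on the right. Grey boxes are gene spans, coloured lines are peaks and points are summits. No line begins before 0, and many end beyond the box.

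Other genes of histone supply were set beside the 5.28% of all protein-coding genes with a peak in HepG2, 0.125% in the KO-named list and 6.96% in the WT-named list, without a test. Their share lay above that background in HepG2 and the WT-named list for replacement histones, chaperones and S phase genes, on small counts. For mRNA processing and transcription, 1 gene of 23 in either list was near the background and shows no shortage. Of 23 genes of histone mRNA processing and transcription, SLBP and the histone locus factor NPAT among them, 1 had a peak in HepG2, 0 in the KO-named list and 1 in the WT-named list. In both cases it was UPF1, a helicase that also acts in histone mRNA decay, with 7 reads in HepG2, against 6 in the WT-named list. Of 23 replacement histone genes, 4 had a peak in HepG2, 0 in the KO-named list and 5 in the WT-named list. H3-3B, which encodes H3.3, held 23 reads in HepG2, against 11 in the WT-named list. H2AX, whose protein marks DNA breaks, held 19 reads in HepG2 and had no WT-named peak, and H2AJ held 10 reads in HepG2, against 9 in the WT-named list. H2AZ2, one of the H2A.Z genes, held 8 reads in HepG2, against 9 in the WT-named list, while the other, H2AZ1, and MACROH2A1 held 9 reads each in the WT-named list alone.

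Of 27 histone chaperones and carriers, 3 had a peak in HepG2, 0 in the KO-named list and 6 in the WT-named list. SET held 29 reads in HepG2, against 31 in the WT-named list, and NAP1L1, a chaperone of H2A and H2B, held 9 in HepG2, against 20 in the WT-named list. ANP32E, a chaperone of H2A.Z, held 6 reads in HepG2, against 7 in the WT-named list. PTMA (33 reads), the importin gene IPO7 (12) and RBBP7 (7) had a peak in the WT-named list alone. Of 20 S phase genes, 3 had a peak in HepG2, 0 in the KO-named list and 3 in the WT-named list, with MCM7 and PCNA among them in both. The replicative helicase gene MCM7 held 18 reads in HepG2, against 11 in the WT-named list. PCNA, the sliding clamp of DNA polymerase, held 12 reads in HepG2, against 11 in the WT-named list.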

How the data were processed

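The authors deposited peak lists (hg38) made with cutadapt, BWA and MACS2, per the submitters' processing notes; versions, settings, treatment of multiply matching reads and pooling of replicates are not given in the sources used here. Per the labels, RNA was crosslinked at 254 nm. Each peak has the authors' score, fold enrichment ratio over background, and −log10 of p-value and q-value; the deposited fields follow the MACS2 layout, and peak names show calling per strand.

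Reads were computed here from fold = (n + 1) / (λ + 1) and the Poisson p, with λ a multiple of 0.02 (200 bp extension, 10000 bp window) and −log10 p matched within 0.001. The extension and window were assumed here, since the settings are not given. All 66 histone peaks had 1 solution. On simulated peaks 297 of 297 were recovered for HepG2, 42 of 42 for the KO-named list and 295 of 295 for the WT-named list. The simulated peaks were made with the same formula and steps. Their recovery shows that solutions are unique, and cannot show that the deposited values follow the formula. PCR copies cannot be recognised among these reads, and the 95% intervals are for counting error alone.

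Summits (1-based) were placed in the shortest protein-coding gene of the RefSeq table (GRCh38.p14), without strand; strands and promoters came from the RefSeq promoter table. No exons, genome or proteins were used. Members and lists were chosen with earlier results of these data known. The rule for named genes took, per list, the 12 members with most reads and the leading 5 found in 1 list, then H1 genes with a peak, identical copies and up to 6 genes per related list; other members were named after their values were seen. Values of 1 member and 1 S phase gene enter the counts and are not reported here. Alternatives covered strand, overlap, widening by 200 bp, −log10 q of at least 5 and at least 10 reads. Python 3.11.15, pandas 2.3.3, NumPy 2.4.6 and SciPy 1.17.1 were used. The liver list was not used here.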

Additional observations from a re-analysis of the deposited data

How the results depend on the processing

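Counts of histone genes with a peak stayed within 1.5 times of the reported ones under every alternative run: 35 to 40 in HepG2, 0 in the KO-named list and 18 to 24 in the WT-named list. Of the alternatives for all results, 33 stayed within that margin or within counting error and 1 did not: with −log10 q of at least 5, the members found in the WT-named list alone numbered 2, not 1, since H2BC11 lost its HepG2 peak. Shared members numbered 22 by overlap of 1 bp and 19 by reciprocal overlap of at least 50% of each peak. With at least 10 reads, HepG2 alone held 20 members. Under these rules the share of all protein-coding genes with a peak was 2.67 to 5.54% in HepG2, 0.0947 to 0.135% in the KO-named list and 3.77 to 7.31% in the WT-named list. By any overlap, 97.4% of the histone peaks in HepG2 lay on the strand of the gene. No paired analysis was possible because the lists carry no values per replicate. Peaks of 6 to 10 reads, lists without library totals and copies of near-identical sequence limit what the counts of members without a peak show.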
